A study of Homo sapiens with 6 samples.

Results

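Signalling through the kinase ERK switches on genes whose products hold the same pathway back, together with transcription factors that carry its output, and 10 such genes were followed here: the phosphatases DUSP4, DUSP5 and DUSP6, the inhibitors SPRY2, SPRY4, SPRED1 and SPRED2, the transcription factors ETV4 and ETV5, and PHLDA1. They were taken by gene symbol from a deposited table of 62753 genes, and each symbol matched exactly 1 row. The table holds FPKM, that is, reads scaled to gene length and to library size, for 6 libraries of messenger RNA. The 3 WT libraries are from unedited cells labelled HepG2, a line derived from a human liver cancer, and the 3 sgPARP1 libraries from the same labelled line with PARP1 knocked out by CRISPR-Cas9; PARP1 makes ADP-ribose chains at DNA breaks. No treatment is given for either group. The labels do not state whether the edited cells are a clone or a pool, or whether libraries of a group are separate cultures, so the p-values measure only library-to-library spread, which may be technical.

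In the ERK pathway, growth factor receptors load RAS with GTP, RAS activates RAF kinases, RAF activates MEK, and MEK activates ERK, which enters the nucleus and phosphorylates transcription factors. Dual-specificity phosphatases remove the activating phosphates from ERK and related kinases, Sprouty and SPRED proteins act further up, between receptors and RAF, and the PEA3 factors ETV4 and ETV5 are transcribed when ERK relieves the repressor CIC. In liver cancer cells this pathway is commonly active downstream of growth factor receptors, and the RNA of these feedback genes is often read as a measure of ERK output. The values here are RNA levels, and no measurement of ERK itself was analysed.

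The libraries hold 14842498 to 17305129 reads in genes, as recovered from the FPKM values, and 1 read per kilobase is worth 0.0579 to 0.0664 FPKM. PARP1 was at 31.8, 31.5 and 31.5 FPKM in WT and at 4.31, 4.23 and 4.39 FPKM in sgPARP1, in accord with the group labels. The liver identity in the labels was not seen in the RNA. Of 13 hepatocyte and HepG2 markers, none had a mean of 0.5 FPKM and 8 were listed at 0 in all 6 libraries, among them ALB, AFP, APOB, TTR and SERPINA1, and their summed level was 0.0228 to 0.297 FPKM in WT and 0 to 0.117 FPKM in sgPARP1. Of 5 fibroblast markers 1, COL1A2, was listed at 0 throughout, and COL3A1 was above 0 only in sgPARP1 replicate 2, at 0.0192 FPKM. The summed level was 18.1 to 19.9 FPKM in WT and 18.3 to 20.8 FPKM in sgPARP1, most of it COL1A1. Of the 3 that were tested, DCN was lower in sgPARP1 (log2 fold change −0.67, limma adjusted p = 0.00877), while PDGFRB at 0.28 (limma, adjusted p = 0.111) and COL1A1 at 0.07 (limma, adjusted p = 0.537) did not pass; their part in the results was not tested. Endothelial and leukocyte markers summed to at most 0.386 and 0.488 FPKM in any library.

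Of the 10 genes, ETV4 and DUSP4 were lower in sgPARP1, none was higher, 7 did not pass the test and SPRY4 was too low to be tested. Values were tested as log2(FPKM + 1) with limma in the 13167 genes that averaged 0.5 FPKM or more, and a gene was called at a Benjamini-Hochberg adjusted p under 0.05. ETV4 fell by 40.3% and DUSP4 by 30.9% in mean FPKM. That is 2 of 9 tested genes called lower, where 4.44% of all tested genes were lower, 3.52% higher and 7.96% changed in either direction. At an unadjusted p under 0.05, 4 of the 9 were lower and 0 higher. Of all 13167 tested genes, 1626 were lower and 1590 higher at that limit. Voom, limma's test on the recovered reads, called the same number of members as limma, 2 lower and 0 higher. Over all 13167 genes voom called 915 lower and 646 higher. In 5 of the 9 all sgPARP1 libraries lay below all WT libraries, and in none above, against 14.9% of all tested genes below and 16.1% above. The median log2 fold change of the 9 was −0.18, and that of all tested genes 0.00292. In RNA from whole cultures, fewer cells that express a gene and less RNA per cell cannot be told apart.

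**Figure D1:**
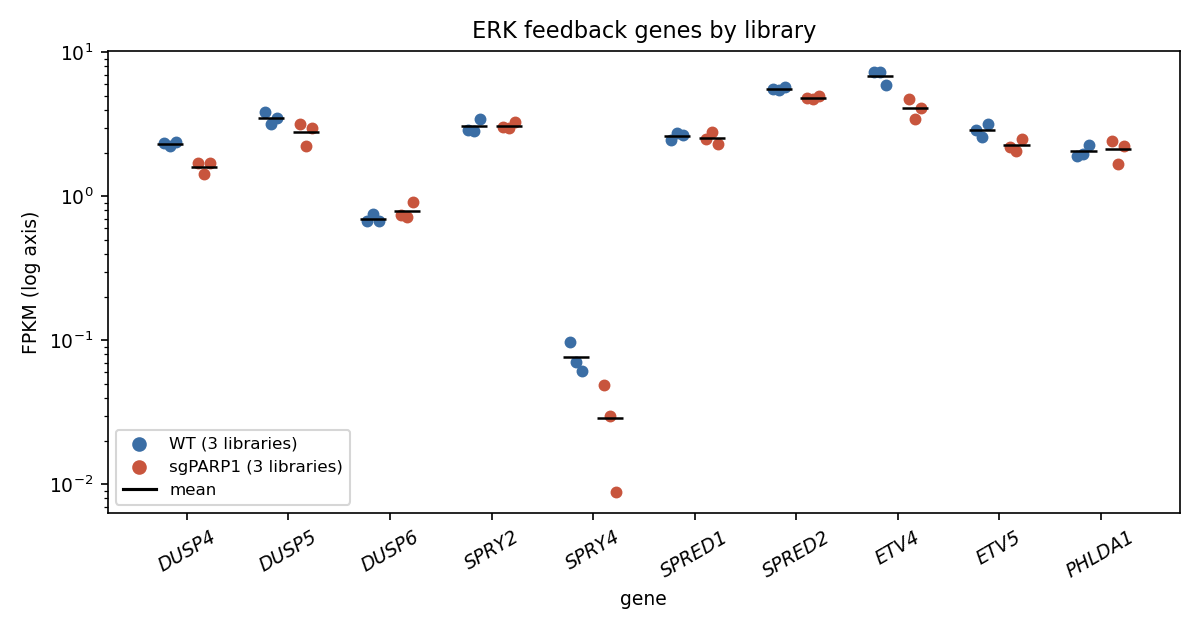
FPKM on a log axis of the 10 ERK feedback genes in each library, with WT in blue, sgPARP1 in red and the group mean as a black bar. The groups do not overlap for ETV4, DUSP4, SPRED2, ETV5, DUSP5 and SPRY4, for DUSP5 by a narrow margin. They overlap for SPRY2, SPRED1, PHLDA1 and DUSP6, and SPRY4 lies far below the rest.

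ETV4 and ETV5 are ETS-family transcription factors of the PEA3 group that drive growth and invasion programmes downstream of ERK. ETV4 (ENSG00000175832, minus strand of chromosome 17, 43527844 to 43579620 in hg38) was at 7.32, 7.27 and 5.93 FPKM in WT and at 4.74, 3.42 and 4.10 FPKM in sgPARP1. Every sgPARP1 library was below every WT library, and WT replicate 3 was the lowest of its group. The mean went from 6.84 ± 0.79 to 4.08 ± 0.66 FPKM (SD, n = 3 each), on 185 to 444 reads per library. The log2 fold change, −0.63 (standard error 0.12), had a 95% interval from −0.90 to −0.35 (limma, adjusted p = 0.0235). Permuting the libraries gave an exact two-sided p = 0.1, and groups of this size cannot go lower. The call was lost without WT replicate 1 (adjusted p = 0.0801), WT replicate 2 (adjusted p = 0.0864) or sgPARP1 replicate 3 (adjusted p = 0.0656), and when low genes were kept in the test (adjusted p = 0.0731), each time with ETV4 still lower in sgPARP1.

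ETV4 lies wholly inside the span of DHX8, a helicase gene transcribed from the other strand, and whether the counting used strand is not given in the sources used here. DHX8 was at 12.7 ± 0.29 FPKM in WT and 13.1 ± 0.41 FPKM in sgPARP1, a log2 fold change of 0.04 (limma, adjusted p = 0.657). The part of the ETV4 reads that came from DHX8 was not tested. Among 60 other tested genes that start within 1000000 bases of ETV4, 4 were lower and 1 higher, with a median log2 fold change of −0.06. Over all tested genes 4.44% were lower, 3.52% higher and 7.96% changed in either direction.

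ETV5 (ENSG00000244405, minus strand of chromosome 3, 186046314 to 186110318) was at 2.87, 2.60 and 3.15 FPKM in WT and at 2.20, 2.07 and 2.48 FPKM in sgPARP1. The groups did not overlap, though the lowest WT and the highest sgPARP1 library were close. The mean was 2.87 ± 0.28 against 2.25 ± 0.21 FPKM, a log2 fold change of −0.25 with a 95% interval from −0.44 to −0.06, and it did not pass the test (limma, adjusted p = 0.114). The ratio of ETV4 to ETV5 was 2.55, 2.80 and 1.88 in WT and 2.15, 1.65 and 1.65 in sgPARP1, with overlapping groups. It is 1 of 4 ratios within families that were compared, with an exact two-sided permutation p = 0.2 (adjusted p = 0.267). With 3 against 3 libraries this test cannot go below 0.1, so no ratio could pass at 0.05 and whether ETV4 and ETV5 differ in their change is not settled by it.

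The genes nearest in pattern to ETV4, by the root mean square difference of centred log2(FPKM + 1) over the 6 libraries, were C1QTNF6, SLC38A3, RIN1, MMP15 and SREBF1, at differences of 0.0751 to 0.0848. C1QTNF6 was at 17.4, 16.0 and 15.4 FPKM in WT and 11.3, 9.53 and 10.6 FPKM in sgPARP1. They were picked over the same libraries, so their likeness to ETV4 is a description. RIN1, an effector of RAS, was at 7.80 FPKM in WT and 5.11 FPKM in sgPARP1 on average, and SREBF1, a regulator of lipid synthesis, at 56.8 and 38.8 FPKM. The amino acid transporter SLC38A3 was at 1.37 and 0.548 FPKM, and the membrane-bound metalloprotease MMP15 had a log2 fold change of −0.72.

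The dual-specificity phosphatases remove the phosphates from threonine and tyrosine that activate ERK. DUSP4 and DUSP5 are nuclear, DUSP5 is selective for ERK, and DUSP6 is a cytoplasmic phosphatase selective for ERK. DUSP4 (ENSG00000120875, minus strand of chromosome 8, 29333064 to 29350684) was at 2.35, 2.23 and 2.38 FPKM in WT and at 1.70, 1.42 and 1.69 FPKM in sgPARP1. The WT libraries lay close together, and all sgPARP1 libraries were below them. The mean went from 2.32 ± 0.078 to 1.60 ± 0.16 FPKM on 159 to 295 reads per library, and the log2 fold change of −0.35 (standard error 0.072) had a 95% interval from −0.52 to −0.18 (limma, adjusted p = 0.032; exact permutation p = 0.1). The call was lost when any single library was left out (adjusted p = 0.066 to 0.101, lowest without sgPARP1 replicate 3 and highest without WT replicate 3), and when low genes were kept (adjusted p = 0.0977).

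DUSP5 (ENSG00000138166, plus strand of chromosome 10, 110497907 to 110511533) was at 3.84, 3.19 and 3.48 FPKM in WT and at 3.18, 2.23 and 2.98 FPKM in sgPARP1. The groups did not overlap by a narrow margin, the lowest WT value being 3.195 and the highest sgPARP1 value 3.175 FPKM, and sgPARP1 replicate 2 stood well below the other 2 of its group. The log2 fold change of −0.25, with a 95% interval from −0.52 to 0.00688, did not pass the test (limma, adjusted p = 0.214). Its processed pseudogenes DUSP5P1 and DUSP5P2 held at most 1 read in any library. Of all members only SPRED1 and SPRY4 did not have their lowest sgPARP1 value in sgPARP1 replicate 2. Without that library the log2 fold change was −0.14 for DUSP5, −0.30 for DUSP4 and −0.53 for ETV4. It was −0.21 for ETV5 and −0.17 for SPRED2, so these falls were smaller but kept their direction.

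DUSP6 (ENSG00000139318, minus strand of chromosome 12, 89347235 to 89352501) was the lowest of the phosphatases, at 0.675, 0.750 and 0.671 FPKM in WT and at 0.745, 0.723 and 0.917 FPKM in sgPARP1. The groups overlapped, and each value rests on 39 to 61 reads. The log2 fold change was 0.08 with a 95% interval from −0.14 to 0.29 (limma, adjusted p = 0.654). DUSP4 stood at 3.48, 2.98 and 3.55 times DUSP6 in WT and at 2.29, 1.96 and 1.84 times DUSP6 in sgPARP1. This ratio did not overlap between the groups, and its exact permutation p of 0.1, the smallest the design allows, became 0.267 when adjusted over the 4 ratios. The ratio of DUSP4 to DUSP5 was 0.665 ± 0.047 in WT and 0.581 ± 0.051 in sgPARP1 (exact permutation p = 0.2, adjusted p = 0.267).

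The SPRED proteins sit at the membrane and block RAS signalling, and SPRED1 does so by bringing in the RAS inhibitor neurofibromin. SPRED2 (ENSG00000198369, minus strand of chromosome 2, 65310851 to 65432637) was at 5.58, 5.50 and 5.71 FPKM in WT and at 4.78, 4.72 and 4.94 FPKM in sgPARP1. The 2 groups were tight and did not overlap. The mean went from 5.59 ± 0.11 to 4.81 ± 0.12 FPKM on 400 to 530 reads per library, and the log2 fold change was −0.18 with a 95% interval from −0.29 to −0.07. With an unadjusted p of 0.00553 and an adjusted p of 0.0598 in limma, SPRED2 just missed the threshold, and it missed it under every alternative tried (adjusted p = 0.0581 to 0.175).

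SPRED1 (ENSG00000166068, plus strand of chromosome 15, 38252836 to 38357249) was at 2.44, 2.75 and 2.66 FPKM in WT and at 2.49, 2.77 and 2.31 FPKM in sgPARP1. The groups overlapped fully, and the log2 fold change of −0.04 had a 95% interval from −0.21 to 0.13 (limma, adjusted p = 0.791). The ratio of SPRED2 to SPRED1 was 2.14 ± 0.14 in WT and 1.92 ± 0.22 in sgPARP1 (exact permutation p = 0.3, adjusted p = 0.3, with 0.1 the smallest possible).

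SPRED2 is also the only member whose promoter held a searched motif among the 6 members with an entry in the RefSeq promoter table (build GRCh38.p14), which are DUSP6, SPRY2, SPRY4, SPRED1, SPRED2 and PHLDA1 with 9 annotated starts between them. Each entry covers 250 bases before to 50 after a start. The motifs, searched on both strands, were the ETS forms CCGGAAGT and ACCGGAAG, which overlap each other by 7 letters, the AP-1 site TGANTCA and the cAMP response element TGACGTCA. They are found in 4.14%, 2.17%, 7.71% and 1.85% of the 35116 promoters of the table, and 0, 0, 1 and 0 of the 9 member starts hold them. The AP-1 letters occur at the inner SPRED2 start, as TGACTCA from base −6 and TGAATCA from base 35, and not at the outer one. Both starts are shown on the minus strand, the 100 bases before the start and the first transcribed base, with AP-1 letters in capitals. The match from base 35 lies beyond the window shown. The outer window is chr2:65432599-65432699 and the inner one chr2:65366778-65366878. FPKM per gene does not separate the starts, and a match of letters is not evidence of a bound factor.
SPRED2 outer start: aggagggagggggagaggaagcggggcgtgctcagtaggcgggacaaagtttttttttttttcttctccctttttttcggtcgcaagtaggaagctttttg
SPRED2 inner start: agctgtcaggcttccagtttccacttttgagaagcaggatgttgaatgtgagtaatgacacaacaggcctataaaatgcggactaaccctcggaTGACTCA

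The Sprouty proteins are inducible inhibitors that act between receptor tyrosine kinases and RAF. SPRY2 (ENSG00000136158, minus strand of chromosome 13, 80335976 to 80341126) was at 2.87, 2.84 and 3.45 FPKM in WT and at 3.04, 2.97 and 3.25 FPKM in sgPARP1. The sgPARP1 values lay inside the WT range, and the log2 fold change of 0.01 had a 95% interval from −0.17 to 0.19 (limma, adjusted p = 0.93). SPRY4 (ENSG00000187678, minus strand of chromosome 5, 142310427 to 142326455) was at 0.0972, 0.0706 and 0.0608 FPKM in WT and at 0.0487, 0.0297 and 0.00885 FPKM in sgPARP1. The groups did not overlap, but these values are 11, 8 and 6 reads against 5, 3 and 1 read. Summed over a group they are 25 reads in WT (95% exact Poisson interval 16.2 to 36.9) and 9 reads in sgPARP1 (4.12 to 17.1). These intervals cover counting error only, and their overlap is not a test of the difference, which was not tested on the summed reads. Without the filter on low values SPRY4 did not pass (limma, adjusted p = 0.343), on a scale that understates changes of low genes.

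PHLDA1, a pleckstrin homology-like domain protein whose gene is induced early by growth factors, lies on the minus strand of chromosome 12 (ENSG00000139289, 76025447 to 76031776). It was at 1.91, 1.98 and 2.27 FPKM in WT and at 2.42, 1.68 and 2.25 FPKM in sgPARP1. The sgPARP1 libraries spread to both sides of the WT range. The log2 fold change of 0.02 had a 95% interval from −0.23 to 0.28 (limma, adjusted p = 0.918).

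**Figure D2:**
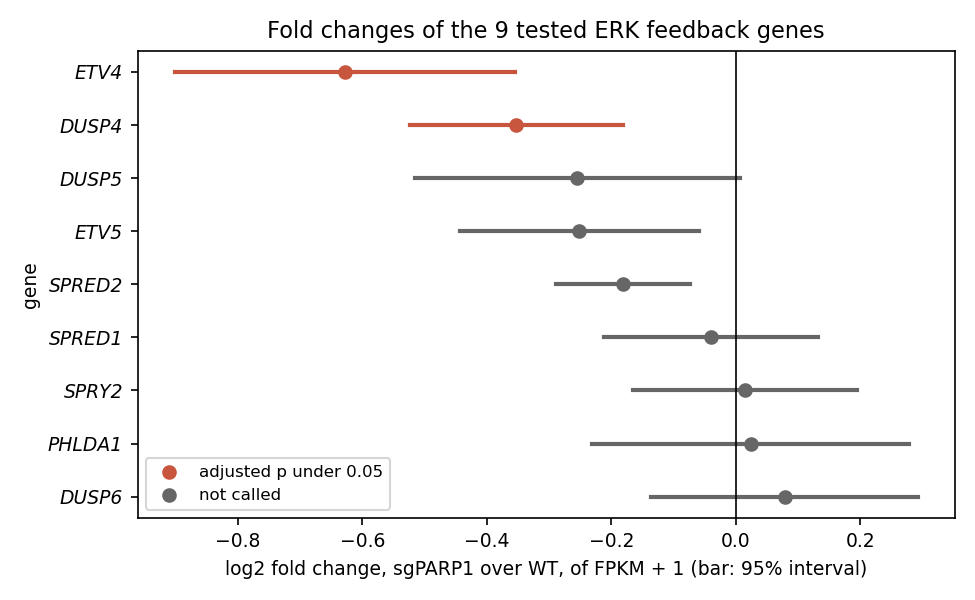
Log2 fold change of FPKM + 1, sgPARP1 over WT, for the 9 tested ERK feedback genes, with 95% intervals from limma (n = 3 libraries a group). ETV4 at −0.63 and DUSP4 at −0.35, in red, are called; the intervals of ETV5 and SPRED2 lie below 0 but their adjusted p is over 0.05, and those of DUSP5, SPRED1, SPRY2, PHLDA1 and DUSP6 reach across 0.

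Ranked by level within a group, ETV4 was first in WT and SPRED2 second, with no overlap between the libraries of ETV4, those of SPRED2 and those of DUSP5 behind them. From DUSP5 at 3.51 FPKM to SPRED1 at 2.62 FPKM, neighbours in the WT order (DUSP5, SPRY2, ETV5, SPRED1) overlapped, as did DUSP4 and PHLDA1, while DUSP6 and SPRY4 stood apart at the bottom. In sgPARP1 the first places were SPRED2 at 4.81 and ETV4 at 4.08 FPKM, and their libraries overlapped. All neighbours from SPRY2 down to DUSP4 overlapped in sgPARP1. Apart from SPRY4, the members ranked above 57.6% (DUSP6) to 77.7% (ETV4) of the genes with a read in any library, so none was abundant.

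Around the other members 5 of 73 tested genes were called, or 6.85%, close to the 7.96% of all tested genes. Within 1000000 bases of the start of a member, the count of called genes was 0 of 9 tested for SPRED2, 1 of 12 for DUSP4, 1 of 16 for ETV5, 1 of 10 for DUSP5, 1 of 9 for PHLDA1, 1 of 11 for SPRY4 and 0 for SPRY2, SPRED1 and DUSP6. The called neighbours were ZNF395 near DUSP4, IGF2BP2 near ETV5 and MXI1 near DUSP5, all lower, and CSRP2 near PHLDA1 and NDFIP1 near SPRY4, both higher. The median log2 fold change of the neighbours was −0.05 for DUSP4 and 0.05 for ETV5.

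**Figure D3:**
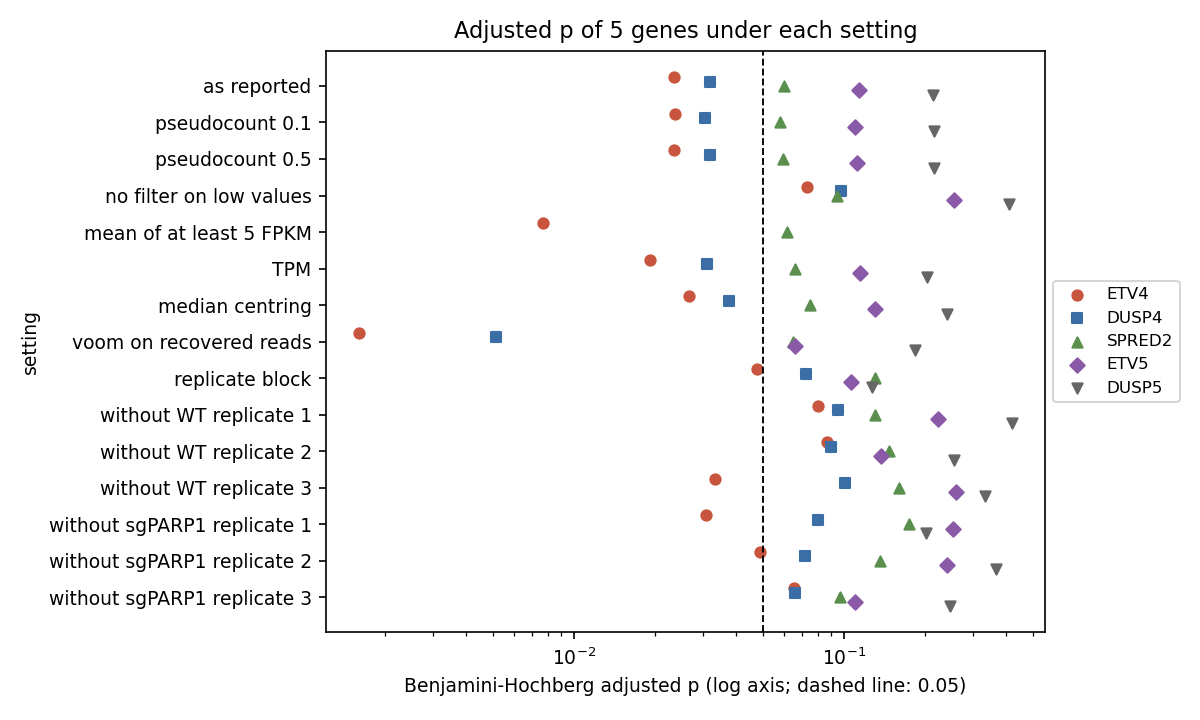
Benjamini-Hochberg adjusted p on a log axis for ETV4, DUSP4, SPRED2, ETV5 and DUSP5 under the reported setting and each alternative, with 0.05 as a dashed line. DUSP4 moves past 0.05 whenever 1 library is left out, ETV4 in 3 of 6 such fits, and the other 3 genes stay above 0.05 in all settings shown (a mean of at least 5 FPKM keeps only ETV4 and SPRED2).

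The paralogs of these genes showed a median log2 fold change of −0.18, the same as the members to 2 decimals. Of 14 paralogs 8 were tested, and 1 was lower and 0 higher, where 4.44% of all tested genes were lower and 3.52% higher. At an unadjusted p under 0.05 limma gave 4 lower and 0 higher, against 1626 lower and 1590 higher of all 13167 tested genes. Voom called 1 paralog lower and 0 higher, and 915 lower and 646 higher over all 13167. DUSP9, a cytoplasmic ERK phosphatase, was at 3.64, 3.38 and 3.26 FPKM in WT and 1.64, 1.71 and 2.16 FPKM in sgPARP1. The groups were far apart, and it fell by 46.4% (log2 fold change −0.65, standard error 0.086, limma adjusted p = 0.00725), a call that held under every alternative that tested it. DUSP1, an immediate-early nuclear phosphatase of p38, JNK and ERK, stood at 53.8 ± 1.0 FPKM in WT and 48.2 ± 2.0 FPKM in sgPARP1 without passing (limma, adjusted p = 0.069), and it passed with TPM (adjusted p = 0.0465) and among genes of at least 5 FPKM (adjusted p = 0.0493).

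Genes of the cascade itself, from the RAS proteins to ERK and its substrate kinases, gave no call among 18 tested of 19 (limma). Over all tested genes limma called 4.44% lower and 3.52% higher. An unadjusted p under 0.05 was reached by 3 higher and 1 lower, against 1590 higher and 1626 lower of all 13167 tested genes. Voom made 0 calls among the 18, and called 915 lower and 646 higher over all 13167. The median log2 fold change of the cascade genes was −0.02. NRAS was at 31.3 ± 0.90 FPKM in WT and 33.9 ± 1.3 FPKM in sgPARP1, and the RAF kinase ARAF at 31.3 ± 1.8 and 30.6 ± 1.1 FPKM. For ARAF the 95% interval of the log2 fold change ran from −0.15 to 0.09, and for NRAS from 0.01 to 0.21 (limma, adjusted p = 0.782 and 0.167).

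Upstream, receptors and adaptors moved in both directions, with 2 lower and 1 higher of 18 tested (19 in the list) and a median of −0.02. The shares over all tested genes were 4.44% lower and 3.52% higher. At an unadjusted p under 0.05 there were 7 lower and 3 higher, against 1626 lower and 1590 higher of all 13167 tested genes. Voom called 3 lower and 2 higher in this list, and 915 lower and 646 higher over all 13167. FGFR2, named after its values were seen, was below the level tested, at 0.219, 0.151 and 0.159 FPKM in WT and 0.462, 0.462 and 0.487 FPKM in sgPARP1, and passed when low genes were kept (limma, adjusted p = 0.0453). EGFR, the epidermal growth factor receptor, was at 34.4, 33.2 and 34.8 FPKM in WT and rose to 44.5, 47.5 and 41.1 FPKM in sgPARP1, 1.30-fold in mean (limma, adjusted p = 0.0129). FGFR3, a fibroblast growth factor receptor, fell by 25.6%, from 14.8 ± 0.33 to 11.1 ± 0.77 FPKM (limma, adjusted p = 0.00929), and SHC1, an adaptor that links receptors to RAS, by 14.8%, from 69.5 ± 3.3 to 59.2 ± 1.1 FPKM (limma, adjusted p = 0.0261). The EGFR call was lost without WT replicate 2 (adjusted p = 0.0607) or sgPARP1 replicate 1 (adjusted p = 0.0592), and the SHC1 call without any single library other than WT replicate 3 (adjusted p = 0.0512 to 0.0934), and when low genes were kept (adjusted p = 0.0596).

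Of 15 growth factor ligands only 4 reached the level tested. Among these 4, 1 was lower and 1 higher, where 4.44% of all tested genes were lower and 3.52% higher. VEGFA, the angiogenic factor and also a hypoxia gene, fell by 28.1%, from 24.1 ± 0.77 to 17.3 ± 0.44 FPKM (limma, adjusted p = 0.00176), and FGF2, a ligand of fibroblast growth factor receptors, rose 1.23-fold from 6.92 ± 0.35 to 8.48 ± 0.34 FPKM (limma, adjusted p = 0.0324). The FGF2 call was lost without any single library (adjusted p = 0.0597 to 0.103), and when low genes were kept (adjusted p = 0.0683). EREG, named after its values were seen, lay below the tested level. It was at 0.395, 0.405 and 0.279 FPKM in WT and 0.0112, 0.0341 and 0.0305 FPKM in sgPARP1, on 1 to 40 reads. NRG1 fell by 36.8% and TGFA, on at most 8 reads, by 78.6%. In no untested ligand did all sgPARP1 libraries lie above all WT libraries. With low genes kept in the test, limma called 2 of 13 ligands lower and 0 higher. Over all 28336 genes in that test it called 309 lower and 278 higher.

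Other negative regulators of the pathway gave 1 lower and 0 higher among 12 tested of 14 in limma and in voom. In limma 4.44% of all tested genes were lower and 3.52% higher, and voom called 915 lower and 646 higher of all 13167. By unadjusted p under 0.05, 2 of the regulators were lower and 0 higher in limma. Over all tested genes 1626 were lower and 1590 higher at that limit. The median log2 fold change of the regulators was −0.05. CIC, the repressor of ETV4 and ETV5 that ERK inactivates, was at 18.4, 16.6 and 15.9 FPKM in WT and 14.4, 12.7 and 13.9 FPKM in sgPARP1. The groups did not overlap and it fell by 19.6%, just past the threshold (limma, adjusted p = 0.0491). The call was lost without any single library (adjusted p = 0.0722 to 0.122), with median centring (adjusted p = 0.0638), and when low genes were kept (adjusted p = 0.116). PEBP1, which binds and inhibits RAF kinases, was at 196 ± 7.0 and 202 ± 7.3 FPKM (limma, adjusted p = 0.58).

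Other genes linked to ERK output were lower more often than higher, with 6 lower, 1 higher and 11 not called of 18 tested (24 in the list). Over all tested genes 4.44% were lower and 3.52% higher. The list includes the transcription factors ELK1, ELK3, ELK4 and SRF, which are not all established as ERK-induced genes. Its median log2 fold change was −0.09. LIF, a cytokine, fell by 66.3% to 1.31 ± 0.084 FPKM, FOSL1, an AP-1 subunit, by 35.7% to 6.72 ± 0.52 FPKM, ELK3, an ETS factor of the ternary complex group, by 37.6% to 3.25 ± 0.26 FPKM, and PLAUR, the urokinase receptor, by 29.4% to 9.90 ± 1.1 FPKM (limma, adjusted p = 0.000299, 0.00307, 0.00474 and 0.0146). JUNB and KLF10, named after their values were seen, fell by 20.4% and 19.4% (limma, adjusted p = 0.0274 and 0.0146), and ODC1, the first enzyme of polyamine synthesis, also named after its values were seen, rose 1.23-fold (limma, adjusted p = 0.00528). The calls of LIF, FOSL1 and ELK3 held under every alternative that tested them, as did that of ODC1, and that of PLAUR was lost without WT replicate 1 (adjusted p = 0.056) or WT replicate 2 (adjusted p = 0.061). JUNB lost its call without any single library other than sgPARP1 replicate 3 (adjusted p = 0.0553 to 0.099), and when low genes were kept (adjusted p = 0.0778). KLF10 lost its call without WT replicate 2 (adjusted p = 0.056), sgPARP1 replicate 1 (adjusted p = 0.056) or sgPARP1 replicate 3 (adjusted p = 0.0512).

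**Figure D4:**
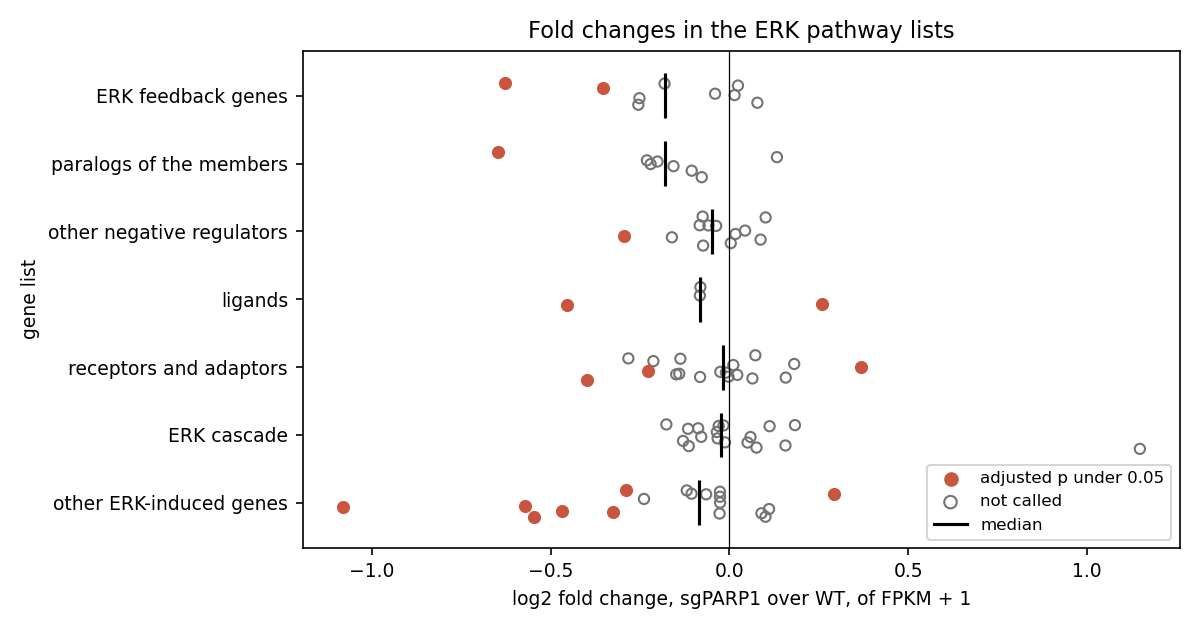
Log2 fold change of FPKM + 1, sgPARP1 over WT, of each tested gene in the ERK pathway lists, with called genes in red, others as open circles and the list median as a black bar; vertical scatter within a row has no meaning. The medians of the ERK feedback genes and of their paralogs are both at −0.18, and the open circle at 1.15 among the cascade genes is HRAS, whose standard error is 1.06.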

How the data were processed

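The authors deposited FPKM per gene for 6 mRNA libraries, with gene length (other columns: symbol and coordinates). The submitters' processing notes list 3 builds, hg38, GRCm38 and mm10, without saying what each served. Aligner, counter and strand setting were not given in the sources used here. GENCODE release 29 (GRCh38) holds 58260 of the IDs, 99.9% of them at overlapping positions, so coordinates are given as hg38. FPKM times gene length came in whole steps: values up to 200 reads were all whole to 0.02 of a read, and the reads so recovered, summed over all genes, are the depth given.

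Genes averaging 0.5 FPKM or more were tested in 1 fit as log2(FPKM + 1), which understates changes of low genes, with limma 3.58.1 with a trend (R 4.3.3), no covariate, and Benjamini-Hochberg adjustment at 0.05. The test was tried on simulated libraries. Intervals are limma's 95% intervals. Exact permutation tests used scipy 1.17.1. Libraries of a group differed by more than counting noise, so none was taken for a duplicate. The rule for genes named beyond the members took PARP1, at most 4 called genes per list by size of change (the most abundant tested genes make up a minimum of 2), and the 5 protein-coding genes nearest in pattern to the called member with the largest fall (no member rose). Outside this rule, and after their values were seen, the text names DHX8, DCN, PDGFRB, COL1A1, COL1A2, COL3A1, FGFR2, EREG, NRG1, TGFA, JUNB, KLF10, ODC1, ELK1, ELK4, SRF, HRAS, RNH1, UBE2A, EIF4A3, ELP5 and the called neighbours of the members. The members and lists were chosen with earlier results of these data known. A planned search of protein motifs was not run. Alternatives were pseudocounts of 0.1 and 0.5, no filter, a mean of at least 5 FPKM, TPM, median centring, voom on recovered reads, a replicate block and leaving out each library.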

Additional observations from a re-analysis of the deposited data

How the results depend on the processing

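The count of all genes called was 463 higher and 585 lower. It was 278 and 309 with no filter on low values, 232 and 318 with a replicate block, 172 to 283 and 229 to 376 when 1 library was left out, 646 and 915 with voom, and 536 and 527 with median centring, where more genes were higher than lower. The 2 members called lower became 0 with no filter on low values, 1 with a mean of at least 5 FPKM (which tests 2 members), 1 with the replicate block, where ETV4 kept its call (adjusted p = 0.0477) and DUSP4 did not (adjusted p = 0.0727), and 0 to 1 with 1 library left out. Of 78 tested genes in the related lists 3 were higher and 11 lower, against 3.52% and 4.44% of all tested genes. The lower count was 7 with the replicate block, which lost SHC1 (adjusted p = 0.067), CIC (adjusted p = 0.0599), JUNB (adjusted p = 0.0564), KLF10 (adjusted p = 0.0576) and, among the higher, FGF2 (adjusted p = 0.0809), and 6 to 9 with 1 library left out, and the higher count 1 to 2 with 1 library left out. The labels do not say whether the replicate numbers pair the libraries. Same-numbered WT and sgPARP1 libraries had correlations of 0.041, 0.081 and −0.026 in their deviations from the group means, and differently numbered ones −0.101 to 0.064. With 3 libraries a group these correlations do not settle whether the numbers mark a shared batch.

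Signs turned only for genes near 0. SPRY2 went to −0.02 without WT replicate 1, to −0.02 without WT replicate 2 and to −0.01 without sgPARP1 replicate 3 (−0.022 to 0.0838 over the left-out libraries). PHLDA1 went to −0.0093 without WT replicate 1, −0.0471 without sgPARP1 replicate 1 and −0.0098 without sgPARP1 replicate 3 (up to 0.129). SPRED1 went to 0.0047 without sgPARP1 replicate 3 (from −0.0903), and ARAF to 0.0157 without WT replicate 1 (from −0.0594). The cause of these changes was not tested. ETV4, DUSP4, DUSP5, ETV5, SPRED2 and DUSP6 kept their direction under every alternative that tested them, with ETV4 at −0.76 to −0.53 and DUSP4 at −0.54 to −0.30. Depth limits SPRY4, with at most 11 reads a library, and DUSP6, with at most 61.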

Other observations

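HRAS, a RAS gene of the cascade list, was at 0.357, 8.71 and 0.410 FPKM in WT and at 0.499, 7.74 and 14.4 FPKM in sgPARP1, that is 15, 366 and 15 reads against 19, 290 and 605 reads. It was singled out after its values were seen. Its log2 fold change of 1.15 has a standard error of 1.06 and cannot be read as a difference between the groups. RNH1, singled out in the same way, was at 0.919, 9.65 and 0.973 FPKM in WT and at 1.57, 17.5 and 10.2 FPKM in sgPARP1, and both genes were low in WT replicates 1 and 3 and sgPARP1 replicate 1. UBE2A was low in the same libraries, at 0.193, 5.49 and 0.388 FPKM in WT and 0.405, 4.91 and 5.68 FPKM in sgPARP1. Of 8734 tested genes with at least 200 reads in a library of each group, 12 differed at least 10-fold between libraries of both groups. These 12 also include EIF4A3, at 0.873 to 23.4 FPKM within WT, and ELP5, at 0.190 to 11.1 FPKM within WT. None of the 10 ERK feedback genes is among them. However, DUSP5, SPRY2, DUSP6 and SPRY4 held at most 168, 180, 61 and 11 reads in any library, so this screen left them out.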
